A study of Mus musculus with 12 samples.

Results

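Cytosolic ribosomal protein genes encode the proteins of the ribosome that works in the cytoplasm, and 64 of them were followed here among the 22180 mouse genes that had a probe set of their own on the arrays. They were taken by symbol: Rpl or Rps followed directly by digits and at most a single letter (a, b, l or x), or Rplp0, Rplp1, Rplp2 or Rpsa, with symbols of pseudogenes and of the Rps6k kinases left out. Of the 64, 40 belong to the large (60S) subunit by symbol and 24 to the small (40S) subunit. They cover 57 of the 80 proteins of the standard ribosome. Of the other 23, 12 had only probe sets that list several symbols (Rpl10 and Rps2 are examples), 9 were not in the probe annotation (Rps27a and Rack1 are examples) and 2, Fau and Rps3a1, have names outside the rule. The remaining 7 of the 64 lie outside the standard set: the paralogs Rpl3l, Rpl10l, Rpl39l and Rps27l, together with Rpl6l, Rpl32l and Rps4l, of which RefSeq lists Rpl6l and Rps4l as pseudogenes.

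The RNA came from 12 samples of sorted prostate cells, taken from male mice that were wild-type and hormone-naïve and depleted of cells with the lineage markers CD45, CD31 and Ter119. The cells were sorted on the surface proteins Sca1 and CD49f into a luminal gate (Sca1-low, CD49f-low), a Sca1-high gate (CD49f-positive) and a basal gate (Sca1-intermediate, CD49f-positive), and each gate was divided into LY6D+ and LY6D- cells, LY6D being a small surface protein. Each of the 6 groups held 2 mice: mice 4 and 5 for luminal, 1 and 5 for Sca1-high and 3 and 5 for basal cells, so that mouse 5 entered every group and the libraries of a gate came in LY6D+ and LY6D- pairs of the same animal. Values are log2 array signals, for which 1 unit is a doubling; each gate's value is the mean ± SD of its 4 libraries (n = 4, from 2 mice), and differences are given ± the standard error of the limma fit. Libraries of a mouse are not independent, so these errors do not measure the spread between mice, and precision is limited by the few arrays.

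Ribosomal protein genes are among the most strongly transcribed genes of any growing cell. The subunits must be made in equal numbers, and each holds a single copy of most of its proteins. Their promoters are short and often lack a TATA box, and their transcripts carry a run of pyrimidines (C and T letters in the DNA) at the very 5′ end, the terminal oligopyrimidine or TOP tract. Through this tract the kinase mTOR and the protein LARP1 set how actively the mRNAs are translated, so that mRNA amount and protein production can part. Arrays measure the mRNA only.

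Start-site stretches of 6 members are shown because the results below turn on these genes: Rps18, Rps9, Rplp0, Rps28 and Rps6 had their lowest signals in Sca1-high cells, and Rpl4 did not. Each runs from 60 bases before the RefSeq start to 20 bases after it on the gene's own strand (GRCm38.p6). The capitals mark the longest run of C and T letters within 20 bases of the start, or the first of equal runs.
Rps18 (chr17:33955646-33955725, minus strand): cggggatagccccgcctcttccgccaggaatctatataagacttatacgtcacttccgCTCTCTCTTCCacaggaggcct
Rps9 (chr7:3703981-3704060, plus strand): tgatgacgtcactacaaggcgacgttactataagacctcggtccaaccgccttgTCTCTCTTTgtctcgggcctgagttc
Rplp0 (chr5:115559407-115559486, plus strand): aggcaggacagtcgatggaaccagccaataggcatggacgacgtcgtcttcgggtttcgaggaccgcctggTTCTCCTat
Rps28 (chr17:33824543-33824622, minus strand): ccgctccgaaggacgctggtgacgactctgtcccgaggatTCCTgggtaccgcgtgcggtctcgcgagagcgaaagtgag
Rps6 (chr4:86857348-86857427, minus strand): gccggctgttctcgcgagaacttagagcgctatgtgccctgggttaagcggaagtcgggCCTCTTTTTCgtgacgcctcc
Rpl4 (chr9:64173327-64173406, plus strand): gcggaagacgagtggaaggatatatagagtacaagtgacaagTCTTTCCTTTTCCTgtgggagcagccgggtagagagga
The run was 11 letters long in Rps18, 9 in Rps9, 10 in Rps6 and 14 in Rpl4, whereas the longest run near the listed start was 7 letters in Rplp0 and 4 in Rps28. In Rps28 an equal run, left in lower case, lies across the start itself, and the capitals begin at the edge of the window.

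Of the 64 genes, 49 had an entry in the RefSeq promoter table, which spans 300 bases per gene. A run of at least 8 C or T letters within 20 bases of the start, on the gene's strand, was present in 24 of the 49 (49%), against 15.9% of all 27018 promoters. The core of the ETS factor motif, CGGAAG on either strand, lay in 32 of the 49 promoters (65.3%) against 17.2% of all, and in the printed stretches of Rps18, Rps6 and Rpl4. The SP1 core GGGCGG was found in 49% against 35.9%, and the letters AAGATGG, the core of the YY1 motif, in 10.2% against 6.48%. TATAAA, the core of the TATA box, was found in 8.16% against 14.2%, and CACGTG, the E-box letters read by MYC, in 6.12% against 7.24%. Both strands were searched for these 4 motifs too, and matches of different motifs may overlap. A match says only that the letters are present in the window.

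The probe sets of the 64 genes fell into a bright and a dim class. Over the 12 libraries, 33 had a mean signal of at least 8 (21 of the large and 12 of the small subunit), and 31 lay below it, with Rpsa at 8.20 just above the line and Rps25 at 7.94 just below it. Rpl4 (mean 12.60), Rpl13 (12.33) and Rps18 (12.29) were the brightest, and Rpl32l (1.99), Rpl10l (2.89) and Rpl37 (3.51) the dimmest. Signals of different probe sets do not rank mRNA amounts, because probe sets differ in length, in how well they bind and in which stretch of the transcript they read. Where a gene had several probe sets the brightest was kept, as it was for 24 genes. In 14 of these the brightest and dimmest probe sets differed by more than 4 log2 units, as in Rps18 (12.29 and 3.11). For 6 of the 31 dim genes a bright probe set shared with another symbol exists, for example 12.28 for the probe set of Rps27 and Rps27rt against 4.65 for that of Rps27 alone. Processed pseudogenes are common in this family, and which probe sets also read such copies could not be settled, so the values of bright and dim genes alike are uncertain in this respect. Rps28, for example, had probe sets at 10.88 and 2.64.

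**Figure D1:**
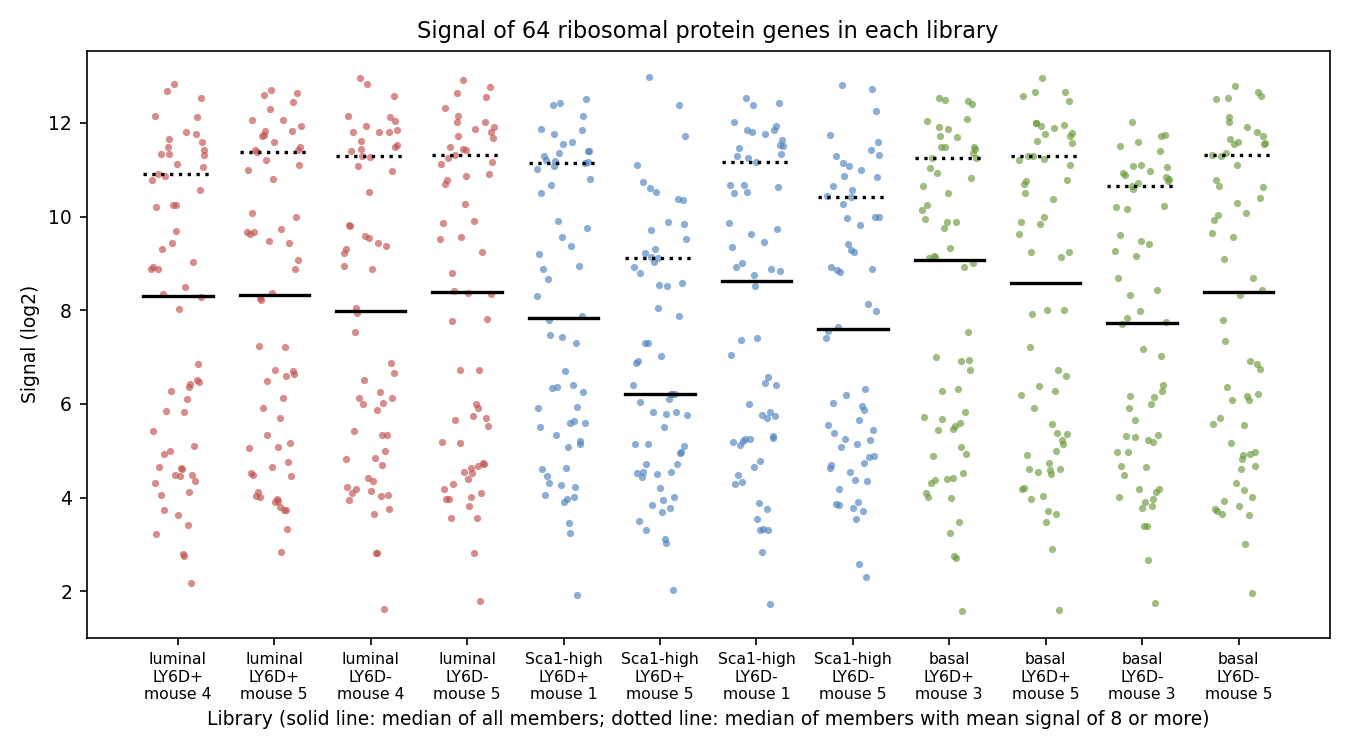
Signal (log2) of the 64 ribosomal protein genes in each of the 12 libraries, a point per gene; the solid line is the median of all 64 and the dotted line the median of the 33 genes with a mean signal of at least 8. The bright genes sit at a median between 10.42 and 11.38 in 11 libraries and at 9.12 in the Sca1-high LY6D+ library of mouse 5.

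Before any comparison, a single library stood apart for the bright ribosomal protein genes. In the Sca1-high LY6D+ library of mouse 5 the median of the 33 bright ribosomal protein genes was 9.12, whereas the other libraries lay between 10.42 and 11.38. Of the 33, 24 (72.7%) had their lowest signal of all 12 libraries there, against 8.64% of all tested genes and 27.3% of the 512 other genes of like brightness. The bright ribosomal protein genes were lower there by a median of 1.90 log2 units than in the mean of the other 11 libraries, and the 512 other bright genes by 0.435. Rps28, a small protein of the 40S head, was at 5.77 in that library and between 9.99 and 11.93 in the others. Rpsa, the 40S protein that was first named as a laminin receptor, was at 5.11 against 6.65 to 9.75, and Rpl15 at 6.92 against 8.91 to 10.77. The bright genes did not all follow: Rpl4 had its highest value there (12.97 against 12.01 to 12.95), and Rpl13 (12.38) and Rps13 (11.73) lay within the range of the others. For Rpl13 this depended on the probe set kept. A bright probe set shared by Rpl13 and Rpl13-ps6 was at 7.48 there, against 9.40 to 11.39 in the other libraries. The bright probe set shared by Rps13, Gm15483 and Rps13-ps4 was at 11.82, its highest value. Over all genes, the luminal LY6D-, basal LY6D+ and basal LY6D- libraries of mouse 5 stood apart. They held the lowest signal of 20.9%, 11.5% and 15.2% of tested genes, with array medians of 3.77, 3.79 and 3.76. The 512 other bright genes were higher there by 0.31, 0.57 and 0.53, and the bright ribosomal protein genes by 0.54, 0.63 and 0.51. Comparisons of Sca1-high cells within mouse 5 are made against these libraries and the luminal LY6D+ one.

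Marker lists differed in the same library. The mean of 10 endothelial genes was 7.37, its highest of the 12 libraries, and the mean of 9 luminal epithelial genes was 6.33, its lowest. The mean of 11 myeloid genes was 4.65, in a gate where the other 3 libraries lay between 5.89 and 6.42. Endothelial means were 5.69 to 7.37 in the Sca1-high, 4.20 to 6.73 in the basal and 4.12 to 4.54 in the luminal gate, although the sort removed CD31+ cells. Myeloid means were highest in the luminal gate (6.87 to 8.48). Of 11 basal markers 10 were measured (Krt5 was not), with means of 7.19 to 8.52 in the basal gate against 5.26 to 6.90 in the luminal. Fibroblast and smooth muscle means ranged from 5.03 to 6.01 and lymphoid means from 3.58 to 4.63, and no erythroid marker was measured. The part of these other cells in the ribosomal protein values was not tested. In bulk samples fewer cells of a type and less RNA per cell cannot be told apart.

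A lesser departure was seen in the basal LY6D- library of mouse 3. There 53 of the 64 genes, and 30 of the 33 bright ones, lay under their mean in the other libraries. How many other genes lay under theirs was not counted. The median difference from that mean was -0.48 for the bright ribosomal protein genes and -0.22 for the 512 other bright genes. Of the former 6.06%, and of the latter 13.7%, had their lowest signal in this library. The bright median was 10.66, while the other basal libraries were at 11.25, 11.28 and 11.30. Rpl29, a small lysine-rich protein of the 60S subunit, was at 8.32 against 10.93 to 11.36. The endothelial mean was 6.73 in this library, against 6.52 in the basal LY6D- library of mouse 5 and 4.20 and 4.46 in the LY6D+ ones; its part was not tested. The Sca1-high LY6D- library of mouse 5 was low for 23 of the 33 bright genes, by a median of 0.283, with Rpl32 at 6.02. The 512 other bright genes had a median difference of 0.068 there.

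**Figure D2:**
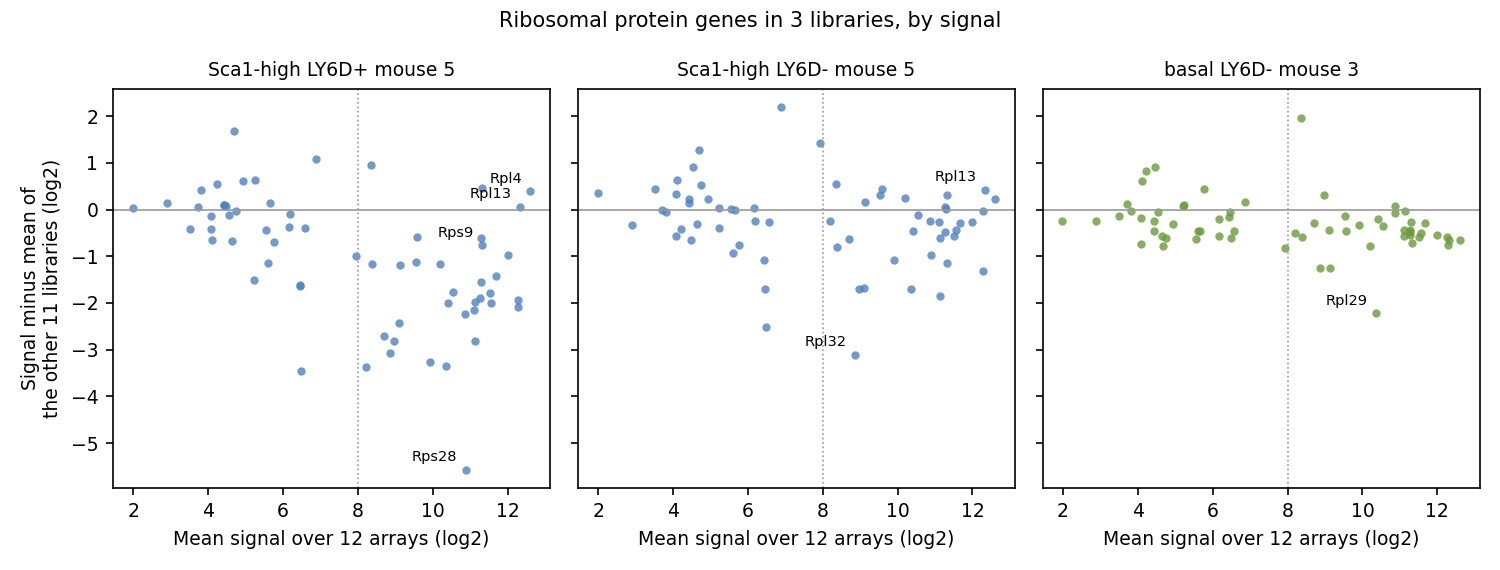
Each panel plots, for a single library, the signal of each of the 64 genes minus its mean in the other 11 libraries (log2) against the gene's mean signal over all 12 arrays; the dotted line marks a mean of 8. In the Sca1-high LY6D+ library of mouse 5 the bright genes lie far below 0, with Rps28 lowest and Rpl4 above 0; in the basal LY6D- library of mouse 3 most lie slightly below 0.

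Basal cells were compared with luminal cells first, since these gates were drawn to separate the main compartments of the gland. The ribosomal protein genes differed little between them. With limma, 0 of the 63 tested genes passed an adjusted p of 0.05 (Rpl32l fell under the filter on low signals), where 84 of 20135 genes (0.417%) did. At an unadjusted p of 0.05 there were 2 of 63 (3.17%), against 9.44% of all genes. The median difference was -0.028, with 29 genes higher and 34 lower in basal cells, and over all genes it was -0.027. The bright ribosomal protein genes had a median of -0.052 and the 512 other bright genes 0.28. Within mouse 5 the median was 0.068, and mouse 3 against mouse 4 it was -0.10. The median turned to 0.10 without the basal LY6D- library of mouse 3 and to 0.085 with quantile normalization.

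Structural groups varied around this median. The 39 tested large subunit genes had a median of -0.042 and the 24 small subunit genes 0.030. In the small subunit, the 11 measured proteins of the head had a median of 0.17 and the 11 of the body and platform -0.028. The 7 measured proteins at the rim of the tunnel through which the new peptide leaves had a median of -0.084. The 3 proteins of the stalk, Rplp0, Rplp1 and Rplp2, had a median of 0.23, with 2 of the 3 higher. Rpl5 and Rpl11, which bind 5S RNA and can hold the p53 regulator MDM2, differed by -0.22 ± 0.33 and 0.26 ± 0.26.

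The largest positive difference in basal cells was that of Rps4l, a transcribed pseudogene in RefSeq that is named after the X-linked 40S gene Rps4x. In the order LY6D+ and then LY6D- cells, the luminal libraries of mouse 4 were at 6.52 and 3.77 and those of mouse 5 at 6.69 and 5.70. The basal libraries of mouse 3 were at 7.53 and 7.02 and those of mouse 5 at 8.02 and 6.84. All 4 basal values thus lay above all 4 luminal values, by little in the nearest pair. The difference was 1.68 ± 0.63 and did not pass (adjusted p = 0.414, limma). Rps4x itself had a luminal mean of 9.46 ± 0.79 and a basal mean of 9.54 ± 1.05.

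Rps4l was the only tested ribosomal protein gene whose basal values all exceeded the luminal ones (1 of 63, 1.59%, where 2.58% of all genes did so). In the other direction 4 genes were separated, Rpl23a, Rpl39, Rpl39l and Rps29, that is 6.35% against 3.17% of all genes. Their gaps were small: Rps29, a zinc-binding protein of the 40S head, averaged 5.78 ± 0.08 in luminal cells against 5.47 ± 0.16 in the basal gate, and Rpl39, a short protein lining the exit tunnel, 4.53 ± 0.10 against 4.24 ± 0.16. The probe set shared by Rpl39, Gm11694 and Gm15067 overlapped between the gates, at 4.56 to 5.36 in luminal and 4.85 to 5.49 in basal cells. Other members with the largest differences were Rpl29 (-0.77 ± 0.84), Rps7 (-0.74 ± 0.37), Rpl6 (0.66 ± 0.33) and Rpl37a (0.62 ± 0.68), and none of the 4 passed.

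**Figure D3:**
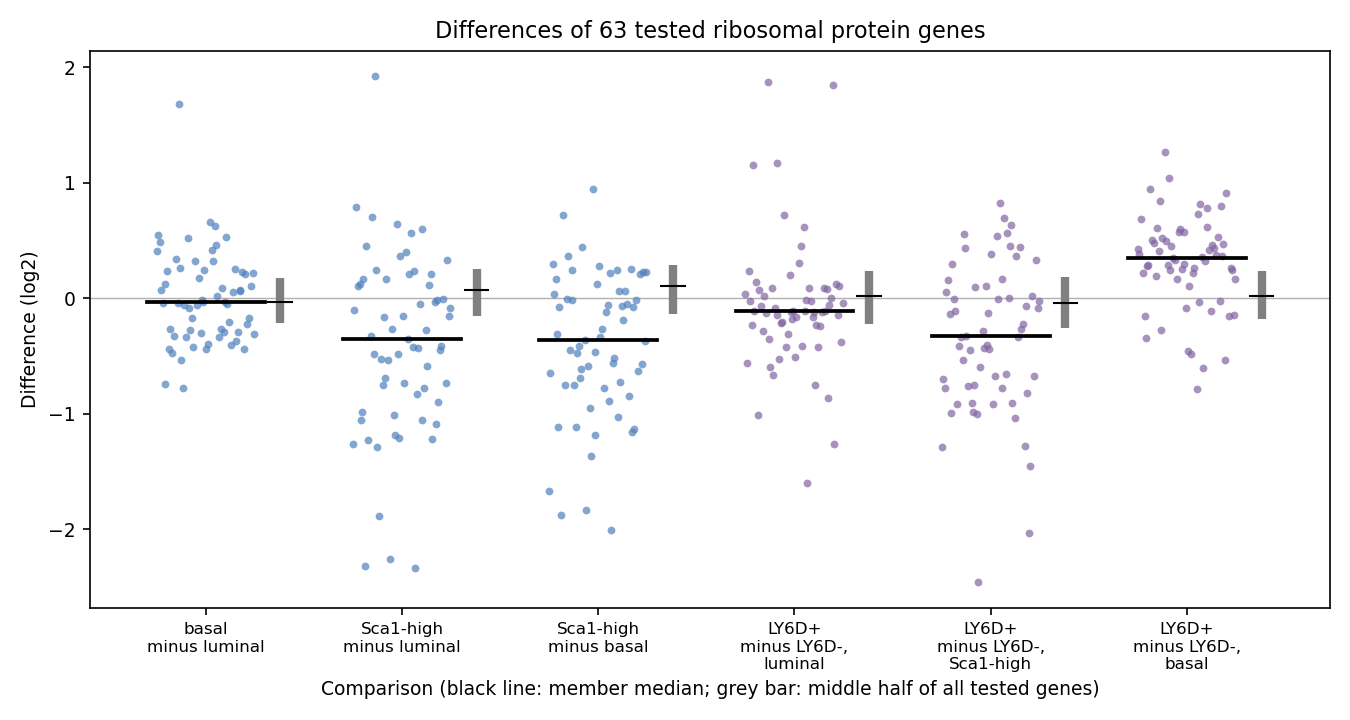
Differences (log2) of the 63 tested ribosomal protein genes in 6 comparisons, a point per gene; black lines are the medians of these genes, and the grey bar beside each column spans the middle 50% of all tested genes. The genes centre on -0.028 for basal minus luminal, on -0.36 for both Sca1-high comparisons and on 0.35 for LY6D+ minus LY6D- in basal cells.

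Sca1-high cells, CD49f-positive like the basal gate, had lower ribosomal protein signals than luminal cells in these arrays, mainly in mouse 5. The median difference was -0.36 with 44 of 63 genes lower, while over all genes it was 0.075. With limma 0 of 63 passed an adjusted p of 0.05, where 28 of 20135 genes (0.139%) did. At an unadjusted p of 0.05 there were 15 of 63 (23.8%), against 8.41% of all genes: 4 were higher (6.35%, against 4.03% of all) and 11 lower (17.5%, against 4.38%). The marker lists differed between these gates as well: 9 of 10 endothelial genes were higher in Sca1-high cells (median 1.47, 2 past the adjusted test), all 9 luminal epithelial genes (median -0.98) and all 11 myeloid genes (median -1.74) were lower, and their part in the result was not tested. The bright ribosomal protein genes had a median of -0.73 (30 of 33 lower). The 512 other bright genes were lower too, in 317 cases and with a median of -0.21, so the all-gene median is not the level of genes of like brightness. How many of these 512 passed an unadjusted p of 0.05 was not counted. Without the Sca1-high LY6D+ library of mouse 5 the median of the 63 was -0.11, with 8 at an unadjusted p of 0.05, and it was -0.0030, with 7, once the mouse 5 libraries of this gate were both dropped. Within mouse 5 it was -0.66 (46 of 63 lower), and mouse 1 against mouse 4 it was 0.022 (30 of 63 lower). The bright ribosomal protein genes had a median of -1.40 within mouse 5 and the other bright genes -0.33. The luminal LY6D- library of mouse 5, with the raised bright signals given above, enters these values.

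With mouse as a fixed replicate block, 2 of the 63 genes passed an adjusted p of 0.05 for Sca1-high against luminal cells, where 104 of all tested genes did. They were Rpl32 (-4.19 ± 0.30) and Rpl10a (-2.69 ± 0.32), both of the 60S subunit. Since mice 1, 3 and 4 each gave a single gate, the gate comparison in that model rests on mouse 5 alone. Rpl32 was at 8.89 and 9.79 (LY6D+ and LY6D-) in luminal cells of mouse 4, 9.67 and 10.79 in those of mouse 5, 8.88 and 8.93 in Sca1-high cells of mouse 1 and 6.05 and 6.02 in those of mouse 5. The values of mouse 1 overlapped those of luminal cells and only those of mouse 5 were low. Rpl10a was likewise at 6.40 and 7.41 in Sca1-high cells of mouse 5, and at 8.31 and 9.86 in those of mouse 1. Its luminal values were 8.88 to 9.67. With mouse as a random block 0 genes of the 63 passed.

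Rps9, a 40S protein near the mRNA entry that helps keep decoding accurate, was low in Sca1-high cells of both mice. Its luminal signals were 11.48 and 11.45 (LY6D+ and LY6D-) in mouse 4 and 11.75 and 12.02 in mouse 5. The Sca1-high signals were 11.08 and 10.52 in mouse 1 and 10.61 and 10.26 in mouse 5, all under every luminal one. The basal signals were 11.92 and 10.66 in mouse 3 and 11.99 and 12.02 in mouse 5, of which only that of the LY6D- library of mouse 3 fell among the Sca1-high ones. The difference from luminal cells was -1.06 ± 0.30 (adjusted p = 0.354, limma) and from basal cells -1.03 ± 0.30 (adjusted p = 0.358, limma). Neither passed.

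Rplp0, which anchors the stalk of the 60S subunit where elongation factors dock, was also separated from luminal cells. It was at 6.85 and 6.88 in luminal cells of mouse 4 (LY6D+ and LY6D-), 6.64 and 7.81 in those of mouse 5, 6.26 and 6.39 in Sca1-high cells of mouse 1 and 4.95 and 5.45 in those of mouse 5. Every Sca1-high value lay under every luminal one. The difference was -1.28 ± 0.35 (adjusted p = 0.333, limma). Of its stalk partners, Rplp1 differed by -0.90 ± 0.54, with 8.54 in the Sca1-high LY6D+ library of mouse 5, and the dim Rplp2 by 0.37 ± 0.36.

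In all, 8 of 63 genes (12.7%) had every Sca1-high value under every luminal value, where 2.48% of all genes did: Rpl28, Rpl29, Rpl41, Rpl6l, Rplp0, Rps18, Rps6 and Rps9. All but Rplp0 belonged to the bright class, and the share among other genes of like brightness was not counted. Rps18, at the top of the 40S head, was at 12.82 ± 0.09 in luminal and 11.60 ± 0.96 in Sca1-high cells. Its Sca1-high signals were 12.42 and 12.38 in mouse 1 and 10.51 and 11.09 in mouse 5, so that most of the gap again came from mouse 5. Rps6, the 40S protein phosphorylated downstream of mTOR, was at 12.16 ± 0.11 and 11.69 ± 0.40 (-0.48 ± 0.27). Rpl41, a peptide-sized 60S protein, was at 12.63 ± 0.10 and 11.88 ± 1.03.

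The genes with the largest negative differences had wide spreads. Rps28 was at 11.41 and 11.84 in luminal cells of mouse 4 and 11.93 and 11.91 in those of mouse 5 (LY6D+ and LY6D-). In Sca1-high cells it was at 10.81 and 11.50 in mouse 1 and 5.77 and 9.99 in mouse 5. The groups overlapped through the LY6D- library of mouse 1, and the fitted difference of -2.25 ± 0.89 became -0.996 without the LY6D+ library of mouse 5. Without the LY6D+ library of mouse 1 it was -3.51 and passed (adjusted p = 0.0128, limma, within 0.0128 to 0.955 over all alternatives), together with Rpl6l and Rplp1; that fit leaves a lone library of mouse 5 in the LY6D+ group. Rpl9 differed by -2.33 ± 0.94 and Rpl32 by -2.31 ± 0.84, Rpl9 with a luminal value of 4.94 in the LY6D+ library of mouse 4 that lay among the Sca1-high ones.

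Among the few higher genes, Rps16 of the 40S head was separated upward (1 of 63, 1.59%, against 3.57% of all genes). Its own probe set was dim, at 4.40 ± 0.27 in luminal and 5.10 ± 0.26 in Sca1-high cells (0.70 ± 0.22, adjusted p = 0.402, limma). The bright probe set shared by Rps16 and 2 other symbols had means of 11.24 and 11.04 in the same gates, which is a difference of -0.20 in the opposite direction. Rps4l was higher by 1.92 ± 0.63, with 7.88 and 5.75 in mouse 1 and 7.87 and 8.88 in mouse 5, and Rpl27a by 0.79 ± 0.35. Its probe set shared with Gm13981 differed by -0.18.

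Against basal cells, Sca1-high cells showed a shift of like size. The median was -0.36 with 45 of 63 genes lower, against 0.11 over all genes. It was -0.65 over the bright ribosomal protein genes (30 of 33 lower) and -0.44 over the 512 other bright genes (367 lower). With limma 0 of 63 passed an adjusted p of 0.05, where 2 of 20135 genes (0.00993%) did, and 8 (12.7%) passed an unadjusted p of 0.05 against 9.83% of all genes. Both Sca1-high comparisons use the same Sca1-high libraries. Markers differed here too: all 11 myeloid genes were higher in Sca1-high cells (median 0.87) and all 10 basal epithelial genes lower (median -1.50), none past the adjusted test, and their part was not tested. The median was -0.095 without the LY6D+ library of mouse 5 and 0.033 when the LY6D- one was dropped as well. Within mouse 5 it was -0.98, and mouse 1 against mouse 3 it was 0.18. With mouse as a fixed replicate block 2 genes passed, again Rpl32 (-4.24 ± 0.30) and Rpl10a (-2.73 ± 0.32), where 80 of all genes did. Without the Sca1-high LY6D+ library of mouse 1, Rps28 (-3.09) and Rplp1 (-1.88) passed instead. No gene of the 63 had all Sca1-high values under all basal ones, where 2.26% of all genes did.

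Rpl39l, a testis-rich paralog of the exit tunnel protein Rpl39, was higher in Sca1-high than in basal cells. In Sca1-high cells it was at 5.51 and 5.18 in mouse 1 (LY6D+ and LY6D-) and 4.52 and 4.63 in mouse 5. In basal cells it was at 4.10 and 4.01 in mouse 3 and 4.18 and 3.76 in mouse 5. The groups did not overlap, which held for 2 of 63 genes (Rpl39l and Rps29, 3.17%) and 4.77% of all genes in that direction. The difference was 0.95 ± 0.24, with the smallest p of the 63 genes in this comparison, yet it did not pass (adjusted p = 0.305, limma). Rpl39 differed between these gates by less, at 4.50 ± 0.17 and 4.24 ± 0.16.

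The other paralogs outside the standard ribosome differed in level and spread. Rpl3l, known from heart and skeletal muscle, ranged from 3.41 to 4.04 with a median of 3.72 and an SD of 0.19, among the smallest of the 64 genes. Rpl10l, an autosomal copy of X-linked Rpl10 that serves in male germ cells, ranged from 2.60 to 3.33 with a median of 2.83. Rps27l, a p53 target, ranged from 5.26 to 6.72 with a median of 6.28, and differed by -0.59 ± 0.25 between Sca1-high and luminal cells. Rpl3, the standard partner of Rpl3l, was among the most variable, at 9.74 and 8.88 in the Sca1-high LY6D- library of mouse 1 and the luminal LY6D+ library of mouse 5 and at 4.89 to 6.75 in the other 10.

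LY6D+ and LY6D- cells of the same gate were compared next, the division on which the sort was built. The fit did not pair the libraries of a mouse, and differences within each pair are given beside it. No ribosomal protein gene passed in any gate, nor with mouse as a fixed replicate block, which does pair them. With limma the counts at an adjusted p of 0.05 were 0 of 63 over the 3 gates together, in luminal cells and in Sca1-high cells (0% of all 20135 genes each) and 0 of 63 in basal cells (2 of 20135, 0.00993%). At an unadjusted p of 0.05 they were 0 of 63 in each of the 4 fits, where 2.62%, 3.56%, 2.41% and 2.2% of all genes passed. The fit over the gates gave a median of -0.045, with 25 genes higher and 38 lower in LY6D+ cells. No gene of the 63 differed the same way in all 6 mouse pairs, whereas 1.45% of all genes were higher and 1.39% lower in every pair.

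The gates differed in the direction of the medians. In luminal cells the median was -0.11 (43 of 63 lower in LY6D+ cells), with -0.064 in mouse 4 and -0.078 in mouse 5. In Sca1-high cells it was -0.32, with -0.0079 in mouse 1 and -0.57 in mouse 5. In basal cells it was 0.35 with 49 of 63 higher, at 0.59 in mouse 3 and 0.050 in mouse 5. Over all genes these medians were 0.017, -0.039 and 0.025, and over the 512 other bright genes 0.027, -0.16 and 0.30. By pair, the all-gene median was -0.080 in luminal cells of mouse 4 and -0.076 in Sca1-high cells of mouse 1, both further below 0 than that of the ribosomal protein genes. Without the Sca1-high LY6D+ library of mouse 5 the Sca1-high median was 0.21, and without the basal LY6D- library of mouse 3 the basal median was -0.0092. Without the Sca1-high LY6D+ library of mouse 1 the Sca1-high median was -0.97 and the Rps28 difference -4.97. Each of these fits kept the partner of the library left out, so differences between mice enter the values. The pairs left whole had medians of -0.0079 (Sca1-high, mouse 1), 0.050 (basal, mouse 5) and -0.57 (Sca1-high, mouse 5, with Rps28 at -4.22). The Sca1-high and basal medians thus rested mainly on the pairs that hold the libraries described above. Among both pairs of a gate, 32 of 63 genes (50.8%) were higher in LY6D+ basal cells of both mice, against 27.8% of all genes. In Sca1-high cells 25 (39.7%, against 27.6%) and in luminal cells 22 (34.9%, against 20.5%) were lower in both mice. The 10 endothelial markers had a median difference of -1.56 in basal cells, with all 10 lower in LY6D+ cells and none past the adjusted test. All 9 luminal epithelial markers were lower in LY6D+ Sca1-high cells (median -0.57), and 5 of the 10 endothelial ones (median 0.019). The part of these markers in the results was not tested.

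**Figure D4:**
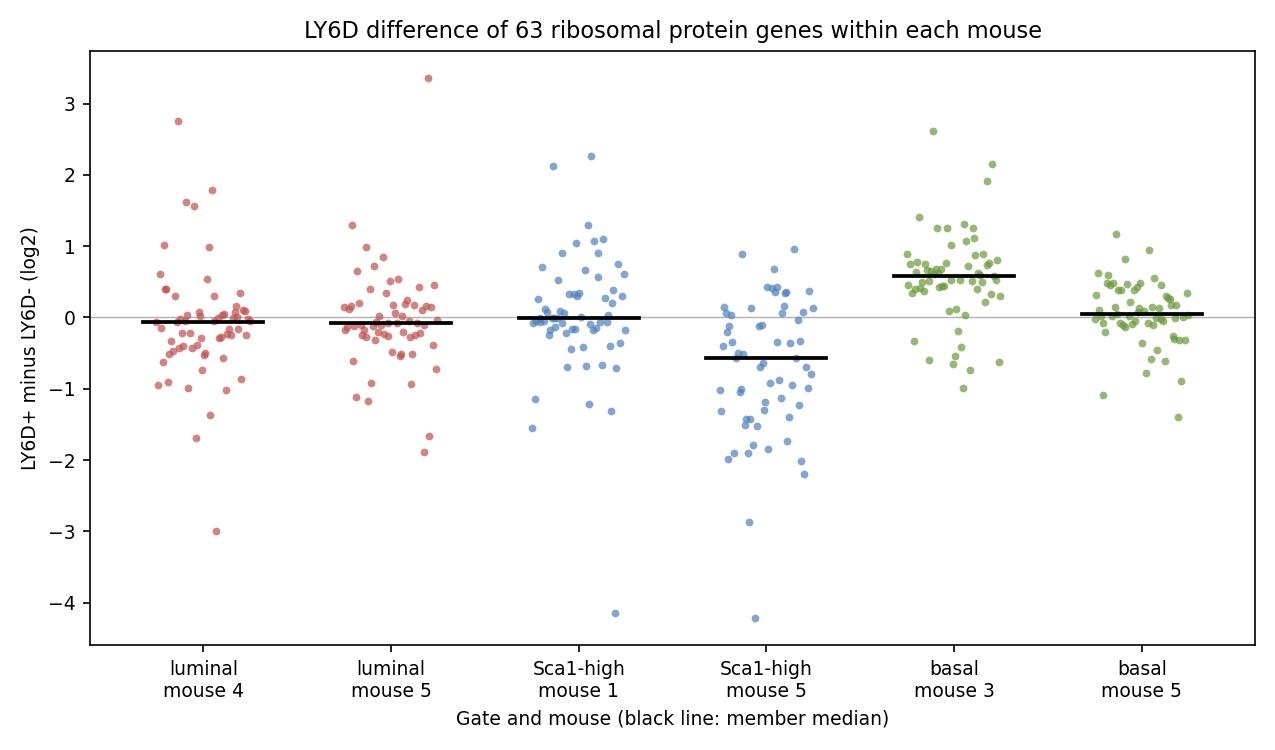
LY6D+ minus LY6D- difference (log2) of the 63 tested ribosomal protein genes within each of the 6 pairs of a gate and a mouse, a point per gene, with the median as a black line. Medians lie between -0.078 and 0.050 in 4 pairs, at -0.57 in Sca1-high cells of mouse 5 and at 0.59 in basal cells of mouse 3.

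In basal cells of mouse 3, 54 of 63 genes and 32 of the 33 bright ones were higher in the LY6D+ library, and in mouse 5, 37 of 63. In the mouse 3 pair 399 of the 512 other bright genes were higher as well (median 0.55, against 0.67 for the bright ribosomal protein genes), as were 10690 of all 20135 genes. The small subunit genes were higher in 22 of 24 in the fitted basal difference (median 0.46) and those of the large subunit in 27 of 39 (median 0.29). Rpl29 was the widest, 2.61 higher in mouse 3 and -0.08 in mouse 5. The difference of the LY6D effect between gates was tested gene by gene, and 0 of 63 genes passed an adjusted p of 0.05 in the 3 comparisons of gates (0% of all genes in each). At an unadjusted p of 0.05 there were 0 of 63 for basal against luminal cells (2.45% of all genes), 1 for Sca1-high against luminal cells (2.92%) and 2 for Sca1-high against basal cells (2.36%).

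The single genes with the largest LY6D differences over the gates were Rps28 (-0.78 ± 0.73), Rps25 (-0.60 ± 0.41) and Rpl34 (-0.52 ± 0.32) downward, and Rps4l (1.09 ± 0.51), Rpsa (0.41 ± 0.70) and Rpl22 (0.41 ± 0.21) upward. The Rpl34 value is that of a dim probe set (mean 5.22). The bright probe set of Rpl34 and Rpl34-ps1 was higher in LY6D+ basal cells of mouse 3 (11.76 against 10.23). It was also higher in LY6D+ Sca1-high cells of mouse 1 (10.89 against 10.86), and lower in the other pairs. Rps4l was higher in LY6D+ cells in 5 of 6 pairs, by 2.75 and 0.99 in luminal, 2.13 in Sca1-high cells of mouse 1 and 0.51 and 1.17 in basal cells, and lower by -1.01 in Sca1-high cells of mouse 5. Rpsa showed the same split, higher in 5 pairs by 0.72 to 1.62 and at -2.87 in Sca1-high cells of mouse 5. Rps28 was at -4.22 in that pair and between -0.69 and 0.45 in the others. Without the Sca1-high LY6D+ library of mouse 5, its LY6D- partner kept, the Rps28 difference over the gates was 0.063.

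Genes that build ribosomes had higher means in basal than in luminal cells. Of 30 tested genes for ribosome biogenesis, the nucleolar factors and RNA polymerase I components that make and process ribosomal RNA, 29 did so, with a median difference of 0.94, where 45.8% of all genes were higher. With limma a single gene of the 30 passed an adjusted p of 0.05, Utp4, a part of the early small subunit processome, and 21 passed an unadjusted p of 0.05, where 0.417% and 9.44% of all genes did. In the same comparison all 11 myeloid genes were lower (median -3.03, 4 past the adjusted test) and all 10 basal epithelial genes higher (median 1.64, 1 past it), and their part was not tested. Utp4 was at 7.17, 7.34, 6.43 and 6.50 in the luminal libraries and at 10.09, 9.02, 9.57 and 9.20 in the basal ones, without overlap, a difference of 2.61 ± 0.38 (adjusted p = 0.0322, limma). The call did not hold under every alternative: the adjusted p ranged from 0.0124 to 0.249, and it was lost with arrays centred on their medians (0.0543), with a mean-variance trend (0.0521), with mouse as a fixed replicate block (0.186), without the mouse 5 libraries of both basal groups and of luminal LY6D- cells (0.249) and without the luminal LY6D+ library of either mouse (0.0807 and 0.0962), the luminal LY6D- library of mouse 5 (0.0767), the basal LY6D+ library of mouse 3 (0.0976) or the basal LY6D- library of mouse 5 (0.0833). The next largest were Wdr43 (2.19 ± 0.69), another processome subunit, and Gnl3 (2.17 ± 0.50), which encodes nucleostemin, and neither passed.

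The translation factors were compared in the same way. The 16 initiation factors had a median of 0.73 in basal against luminal cells with 14 higher, none past the adjusted threshold. The 17 elongation factors and other TOP mRNA genes stayed near the ribosomal proteins, at 0.055 for basal against luminal and -0.43 for Sca1-high against luminal cells, and 71 genes for mitochondrial ribosomal proteins were at 0.071 and -0.19. Fau, a standard 40S protein outside the symbol rule, was at 8.61 and 9.08 in Sca1-high cells of mouse 5, LY6D+ and LY6D-, and at 10.51 or more in the other libraries. For Sca1-high against basal cells the biogenesis genes had a median of -0.94 with 29 of 30 lower, and all 16 initiation factors were lower (median -0.82). Within mouse 5 these medians were -1.41 and -1.13, and mouse 1 against mouse 3 they were -0.52 and -0.60, the same sign in both. The 13 genes of the proteasome core, another abundant complex, had a median of -0.36 for Sca1-high against luminal cells, as did the ribosomal proteins.

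**Figure D5:**
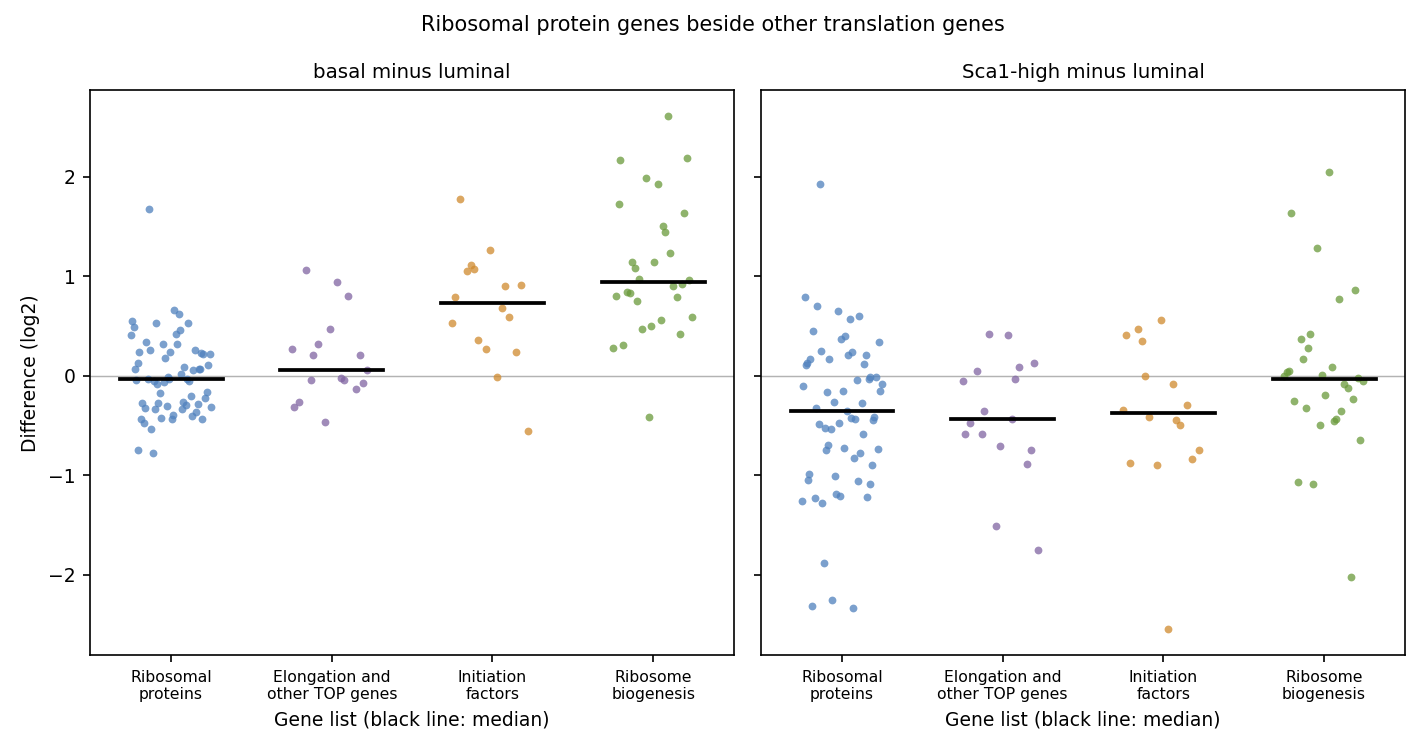
Differences (log2) of the ribosomal protein genes beside 3 other lists of translation genes for basal minus luminal (left) and Sca1-high minus luminal cells (right), a point per gene with the median as a black line. On the left the biogenesis genes centre on 0.94 and the initiation factors on 0.73 while the ribosomal proteins centre on -0.028.

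Of 16 tested regulators of ribosome production, from the MYC and MTOR networks, 1 was lower in basal than in luminal cells and 0 were higher at an adjusted p of 0.05. Of all genes 0.417% passed in either direction. The regulator was Mxi1, whose protein pairs with MAX and opposes MYC, with a difference of -6.60 ± 0.40 (adjusted p = 0.00075, limma) and luminal signals of 10.49 to 11.84 against 4.11 to 5.11 in basal cells. In Sca1-high cells it was at 4.98 to 6.45, a difference of -5.77 from luminal cells (adjusted p = 0.0024, limma), where 0.139% of all genes passed. These sizes are those of the brightest Mxi1 probe set. With the mean of its probe sets the differences from luminal cells were -4.08 in basal and -3.28 in Sca1-high cells. The myeloid markers were also lower than in luminal cells in both of these gates, and their part was not tested. Leaving out the mouse 5 libraries of both basal groups and of luminal LY6D- cells together ended both calls (adjusted p = 0.0669 and 0.0574); over all alternatives the adjusted p ranged from 0.000268 to 0.0669 and from 0.00161 to 0.0574.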

How the data were processed

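RNA was column-purified, and NuGEN Ovation V2 reagents served for its amplification and labelling, per the labels' protocols. Each deposited value is the log2 signal of a probe set; RMA and oligo appear, unversioned, in the submitters' processing notes; probe build and parameters are not given in the sources used here. Values ran from 0.695 to 14.3 and array medians from 3.76 to 3.99, and were used without further normalization. The table held 41345 probe sets, of which 23521 had a single symbol; for each of 22180 genes the brightest was kept. Genes were tested where at least 2 arrays exceeded the lower quartile (2.98), which left 20135.

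All 12 arrays entered a single limma model (limma 3.58.1, R 4.3.3; 6 group means, empirical Bayes, 6 residual and 3.28 prior degrees of freedom) with Benjamini-Hochberg adjustment over all tested genes at 0.05, after testing on simulated data. Mouse numbers mark the same animal; after removing group means, paired libraries correlated over genes at 0.022 (luminal), 0.15 (Sca1-high) and 0.41 (basal). Mouse as a fixed or random block, other filters, normalizations, weights, sample sets and left-out libraries were alternatives. Motifs were searched in RefSeq promoters with Python 3.11.15. Genes were named by a rule: the largest rises and falls per comparison, the brightest, dimmest, most and least variable, and listed fixed members; Rps9, Rpl10a, Rpl15, Rpl23a, Rpl28, Rpl41 and Rpl6l were added after their values were seen. The members and the gene lists were chosen with earlier results of these data known.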

Additional observations from a re-analysis of the deposited data

Results flagged for a closer look

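In groups of 4 libraries, a library was singled out where its gap to the nearest other divided by the group's range exceeded Dixon's critical value for 4 samples. Of 114 such groups examined for 36 named genes and the medians, 6 held such a library, which is near the 1 in 20 that chance gives. Some of the genes were named for their spread or differences in these same data, so that rate is only a rough guide. The Sca1-high LY6D+ library of mouse 5 was not singled out by this rule. In the basal gate the LY6D- library of mouse 3 stood apart for the median of the bright ribosomal protein genes (10.66, others 11.25 to 11.30), for Rpl29 (8.32, others 10.93 to 11.36) and for Rps29 (5.23, others 5.53 to 5.58). Rpl3 was high in the Sca1-high LY6D- library of mouse 1 (9.74, others 4.89 to 5.60). Rpl9 was low in the luminal LY6D+ library of mouse 4 (4.94, others 7.93 to 8.42). Rps13 was high in the luminal LY6D- library of mouse 4 (12.05, others 11.07 to 11.17).

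The median LY6D+ minus LY6D- difference of the ribosomal protein genes was positive in both basal pairs (0.35 in the fit, pairs 0.05 and 0.59) and negative in both luminal pairs (-0.11 in the fit, pairs -0.08 and -0.06) and both Sca1-high pairs (-0.32 in the fit, pairs -0.57 and -0.01). Over all genes the pair medians were -0.080 and 0.14 in luminal cells (mice 4 and 5), -0.076 and -0.00090 in Sca1-high cells (mice 1 and 5) and 0.031 and 0.018 in basal cells (mice 3 and 5), so that in luminal mouse 4 and Sca1-high mouse 1 the all-gene median lay below that of the ribosomal protein genes. For the 512 other bright genes, in the same mouse order, they were 0.28 and -0.25 in luminal and -0.0088 and -0.40 in Sca1-high cells. In basal cells they were 0.55 and 0.036. The signs in Sca1-high and basal cells were thus shared by genes of like brightness. The difference between gates of the ribosomal protein medians was not tested. Gene by gene, 0 of 63 passed an adjusted p of 0.05 with limma.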

How the results depend on the processing

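Over 47 results and 1134 alternative values, 1090 kept their sign and were counted as unchanged. For single genes that meant the same side of the threshold, and for counts the same number. A median was unchanged if it moved by less than 0.61, the pooled SD of library medians within groups. That tolerance is wide: the Sca1-high against luminal median counted as unchanged when it went from -0.36 to -0.0030 without both Sca1-high libraries of mouse 5. Of the rest, 22 uncalled values changed sign, 7 counts or medians moved, 4 single-gene differences became called, 11 lost their call and 0 called values reversed. For basal against luminal cells, the LY6D comparisons over all gates, in luminal and in basal cells, and the 3 differences between gates, 0 ribosomal protein genes passed under every alternative run. With mouse as a fixed replicate block, where gate comparisons rest on mouse 5 alone, 2 ribosomal protein genes passed for Sca1-high against luminal cells and 2 against basal cells, and the median against basal cells was -0.98; the block changed no other count of these genes. Limiting the fit to the groups compared gave no separate value for LY6D over all gates, which uses every array. A library left out alone left its partner of the same mouse in the fit. Leaving out each library in turn gave 0 to 3 genes for Sca1-high against luminal, 0 to 2 against basal and 0 to 1 for LY6D in Sca1-high cells, with a median there of -0.97 to 0.21; the highest counts came without the Sca1-high LY6D+ library of mouse 1, which leaves that group with the library of mouse 5, assumed to vary like the other groups (Rps28, Rpl6l and Rplp1; Rps28 and Rplp1; Rps28). The 22 were 15 medians of ribosomal protein genes (basal against luminal cells spanned -0.19 to 0.10), 4 of biogenesis genes and 3 single genes: Rps27, Sca1-high against basal cells (-0.12, fixed replicate block), Rpsa (-0.36) and Rps28 (0.063), LY6D over all gates, without the Sca1-high LY6D+ library of mouse 1 and of mouse 5. Centring each array on its median shifted every Sca1-high minus basal difference by -0.13. Restricting to standard proteins or to bright genes was chosen after seeing the data and left the Sca1-high medians at -0.41 and -0.73 against luminal cells.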

Other observations

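Probe sets that list a standard ribosomal protein together with other symbols were outside the rule and are given here as values. There were 57, of which 22 had a mean signal of at least 8. Of the 22, 13 had their lowest value in the Sca1-high LY6D+ library of mouse 5 and 6 in the basal LY6D- library of mouse 3, and their median difference in the former from the mean of the other libraries was -0.71. The probe set listing Rpl37a and Mir682 was at 8.20 in that Sca1-high library, with a mean of 11.89 over the 12. The probe set of Rpl10 and Gm5621 had a mean of 11.91, that of Rpl31 and Rpl31-ps12 12.44 and that of Rpl23 with 2 other symbols 11.46. For the 6 dim genes with a bright shared probe set (Rpl26, Rpl27a, Rpl30, Rpl34, Rps16 and Rps27), the shared probe set had a lower mean in Sca1-high than in luminal cells in 5, and Rpl30 was the exception (0.11).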
